A study of Mus musculus with 40 samples.

Results

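Proximal tubule S2 nuclei are the 2088 of 16500 deposited kidney nuclei that the authors' coarser annotation names PTS2. They were taken by that name alone, which holds together the clusters that the finer annotation names PTS2 and UNx PTS2. The study compared mice from which 1 kidney had been removed (unilateral nephrectomy, UNx) with mice that had a sham operation. All mice were male C57BL/6 animals of 8 to 12 weeks, and the right kidney was read 24 h after surgery. The 4 nucleus samples came from 1 mouse each: sham 1 (mouse 71) and UNx 1 (mouse 70) in the labelled batch 3, and sham 2 (mouse 77) and UNx 2 (mouse 78) in batch 4. Nuclei had been sorted by a DNA stain and read with a droplet kit that counts unique molecular identifiers (UMIs) near the 3' end of transcripts. Whole-kidney RNA-seq of 6 other sham and 6 other UNx mice at the same time, all in the labelled batch 1, is used for comparison.

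The proximal tubule reabsorbs most of the filtered salt, glucose, amino acids and bicarbonate, and is divided along its length into S1, S2 and S3. The S2 segment is best known for the secretion of organic anions: basolateral transporters take drugs, urate and uremic solutes from the blood, driven by dicarboxylates that the cell holds inside, and apical pumps pass them into the urine. Proximal tubule cells also make glucose and ammonia from glutamine, oxidise fatty acids and take up filtered protein by endocytosis.

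PTS2 held 659 nuclei of sham 1, 324 of sham 2, 699 of UNx 1 and 406 of UNx 2. Of all nuclei of a mouse, these were 12.3% (exact Clopper-Pearson 95% interval 11.5 to 13.2), 12.3% (11.0 to 13.6), 13.6% (12.6 to 14.5) and 12.1% (11.0 to 13.2). The groups overlapped in this share, and the intervals cover counting error only. Among nuclei of the 3 proximal tubule segments the shares were 31.1% and 30.2% in the sham mice and 35.5% and 31.4% in the UNx mice. With 2 mice against 2, the smallest two-sided p of an exact permutation test is 0.333, so shares were not tested. In the finer annotation, 657 and 323 of the sham nuclei were named PTS2, and 699 and 403 of the UNx nuclei were named UNx PTS2. Only 2, 1, 0 and 3 nuclei of sham 1, sham 2, UNx 1 and UNx 2 carried the other group's name.

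The median PTS2 nucleus held 11823, 12412, 14970 and 10480 UMIs in sham 1, sham 2, UNx 1 and UNx 2, and the sums held 7863988, 4627701, 10762599 and 5458493 UMIs. Both batch 4 libraries stood apart from both batch 3 libraries. Mitochondrially encoded genes made 0.388% and 0.557% of PTS2 counts in sham 1 and UNx 1, against 4.11% and 5.65% in sham 2 and UNx 2. The summed level of 5 thick ascending limb markers in PTS2, none of them at 0, was 98.6 and 114 CPM (counts scaled to a common library total) in batch 3 but 1620 and 2515 CPM in batch 4, and that of 5 red blood cell markers was 124 and 96.2 against 637 and 596 CPM. Each batch holds 1 mouse of each group, so the operation was also compared within batches, with the replicate number of the labels as a block. Of 18 barcodes found in more than 1 library, 7 PTS2 nuclei carried one.

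The S2 name was checked against its 3 markers and those of the neighbouring segments, as a description, since the clusters were made from these genes. Slc13a3, the sodium-coupled dicarboxylate transporter of the basolateral side, stood at 416, 582, 860 and 1013 CPM in PTS2 (unscaled) of sham 1, sham 2, UNx 1 and UNx 2. It stood at 185 to 611 CPM in PTS1 and 49.5 to 273 CPM in PTS3. Slc22a6, which encodes the organic anion transporter OAT1, stood at 178, 277, 473 and 565 CPM in PTS2, at 59.6 to 325 CPM in PTS1 and at 16.6 to 250 CPM in PTS3. Within every mouse both genes were highest in PTS2. Slc22a8, which encodes the related transporter OAT3, went against the name: it stood at 127, 178, 191 and 209 CPM in PTS2 and, in each mouse, higher in PTS1, at 149, 230, 280 and 248 CPM.

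The S1 markers Slc5a2 and Slc5a12, sodium-coupled carriers of glucose and lactate, were lower in PTS2 than in PTS1 of every mouse. Slc7a13, an S3 amino acid transporter, was lower in PTS2 than in PTS3, as were Cyp7b1, Atp11a, Slc5a8 and Slc22a7 of the S3 list. Slc5a10 of that list went the other way except in sham 1. It stood at 144, 210, 209 and 286 CPM in PTS2 of sham 1, sham 2, UNx 1 and UNx 2, and at 180, 129, 140 and 203 CPM in PTS3. The 6 S1 markers together made 906, 972, 392 and 677 CPM in PTS2, and the 6 S3 markers 2634, 2229, 2998 and 2982 CPM. In PTS1 the S1 markers made 3711 to 9817 CPM, and in PTS3 the S3 markers made 5005 to 10011 CPM. One of the S1 markers, Slc7a7, is itself among the genes described below, with 419 and 334 CPM in the sham mice and 40.9 and 65.1 CPM in the UNx mice.

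**Figure D1:**
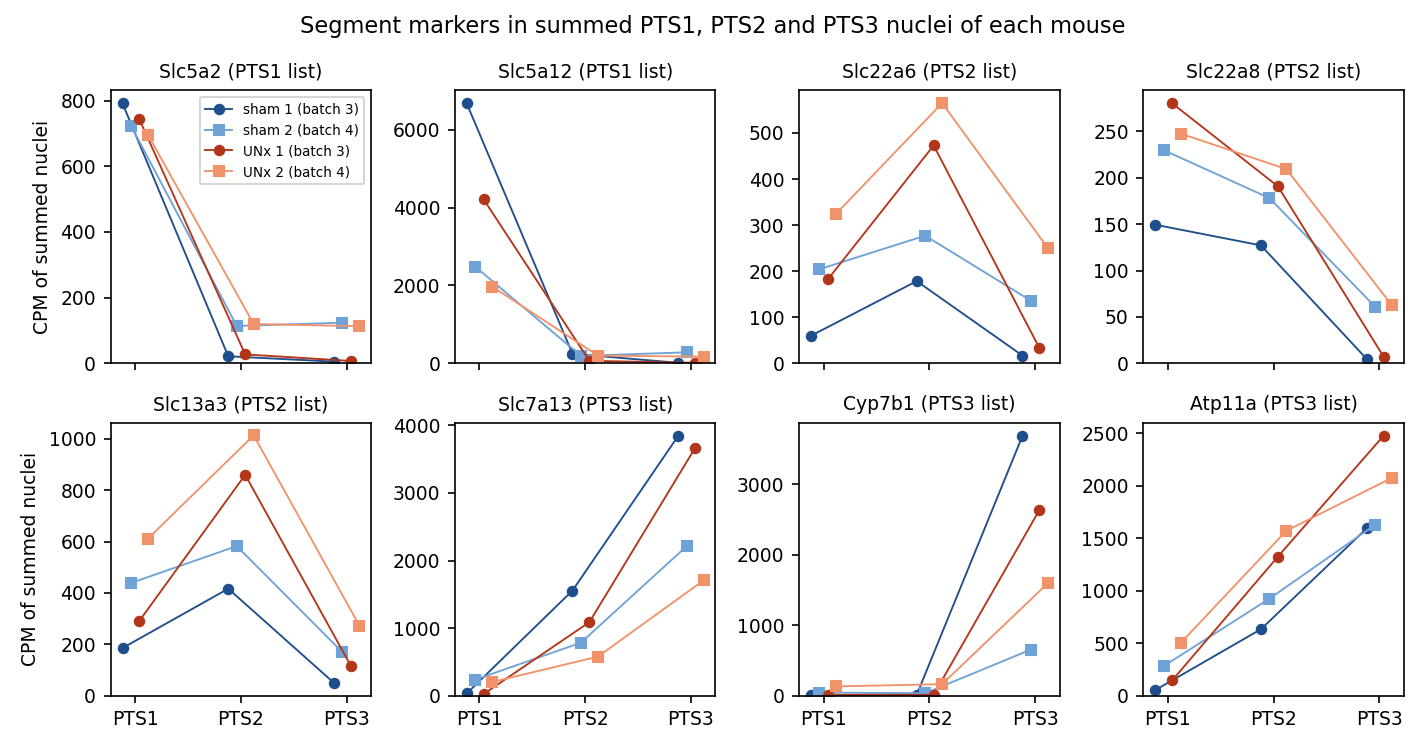
Level (unscaled CPM, linear axes from 0) of 8 segment markers in summed PTS1, PTS2 and PTS3 nuclei, with 1 line per mouse. Slc22a6 and Slc13a3 peak in PTS2 in all 4 mice, Slc22a8 falls from PTS1 to PTS3, and the batch 4 mice (squares) show raised levels of S1 and S3 markers in the segments that hold little of them in batch 3.

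Across all genes, the reported edgeR quasi-likelihood fit, with the operation as its only term, called 0 of 14293 genes at an adjusted p under 0.05 (0.0%), and 336 genes had an unadjusted p under that value. In that fit the difference between batches counts as spread between replicates. With the replicate number as a block, the same edgeR test called 434 genes (3.04%). Of these, 175 rose (1.22%) and 259 fell (1.81%), and the median log2 fold change of all genes was -0.03. The blocked fit has 1 residual degree of freedom, so its errors lean on the spread shared over genes. In the text that follows, rose and fell refer to this blocked test, log2 fold changes and their standard errors (SE) come from it with n = 2 mice per group, and levels are CPM scaled with TMM factors. No gene named here was called by the fit without the block.

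The count depended on the method, since 6 fits with the block called between 66 and 521 genes. Called in all 6 were 46 genes, 6 of which rose and 40 of which fell. The 6 that rose were Slc25a25, Papss1, Pi4ka, Arsb, Lpin2 and Sorcs1, and the last 3 of these were singled out after their values were seen. Among the 40 that fell were Keg1, Cish, Socs2, Irs2, Nmrk1, Slc7a7, Ehhadh, Hao2, Nr1h4, Hsd3b4, Cbfb, Zfp810, Clec2d and Halr1. Among genes described below, Slc38a3, Glul, Slc22a7, Acat2, Pax2, Cyp2d26, Egln3 and Dhrs3 were called in only 2 of the 6 fits.

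Cish had the largest log2 fold change of the genes named here. Cish and Socs2 encode feedback inhibitors that cytokine and growth hormone receptors induce through the transcription factor STAT5. Cish stood at 69.7 and 56.5 CPM in the sham mice and at 0.280 and 3.32 CPM in the UNx mice. These are 542 and 265 counts in the sham mice against 3 and 18 counts in the UNx mice. The ratio of UNx to sham, each taken over its total count, was 0.00404 in batch 3 (95% counting interval 0.000831 to 0.0119) and 0.0576 in batch 4 (0.0336 to 0.0928). The groups did not overlap, and Cish fell with a log2 fold change of -5.51 ± 0.50 (SE, edgeR adjusted p = 0.000159).

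Socs2 stood at 38.3 and 74.8 CPM in the sham mice and at 7.57 CPM in each UNx mouse, and fell by 2.78 ± 0.24 on the log2 scale (edgeR adjusted p = 0.000132). Of the 11 tested genes of the list, 0 rose, these 2 fell and 9 did not pass. Of all genes, 1.22% rose and 1.81% fell. The list's median log2 fold change was -0.05 beside -0.03 over all genes. The growth hormone receptor gene Ghr stood at 5660 and 6645 CPM in the sham mice and 7787 and 6318 CPM in the UNx mice, so its groups overlapped. Stat5a (28.2 and 30.3 CPM after UNx against 16.2 and 22.8 CPM) and Stat5b (182 and 129 CPM against 137 and 141 CPM) did not pass the test either. Bcl6, a repressor that STAT5 holds down, stood at 58.6 and 65.7 CPM in the sham mice, at 271 CPM in UNx 1 and at 75.1 CPM in UNx 2, and did not pass.

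In the thick ascending limb of the same libraries, Cish stood at 58.2 and 58.1 CPM in the sham mice and 36.0 and 17.4 CPM in the UNx mice (unscaled). In the whole kidney of the other mice, Cish was higher after UNx: its level ran from 6.98 over a median of 18.9 to 35.3 CPM in 6 sham kidneys and from 28.1 over 37.1 to 44.5 CPM in 6 UNx kidneys. That log2 fold change was 0.84 ± 0.27 (SE, edgeR adjusted p = 0.0325), with a small overlap between the groups. The call was lost with the share of mitochondrially encoded counts as a covariate (0.67, edgeR adjusted p = 0.324), a share that was itself mostly lower in the UNx kidneys. Bcl6 was lower in the whole kidney after UNx, with a log2 fold change of -1.72 (edgeR adjusted p = 0.0356). Whole-kidney values cannot tell fewer cells of a type from less RNA per cell, and mice, batch and kind of RNA all differ from those of the nuclei.

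The start regions of Cish and Keg1 are shown because these genes had some of the largest falls and because STAT factors bind the pattern TTCNNNGAA, which reads the same on both strands. Windows of 300 bases around the RefSeq gene starts (GRCm38.p6) were searched, and capitals mark the matches in the 150 bases printed of each. The Cish stretch is chr9:107296539-107296688 and the Keg1 stretch is chr19:12695590-12695739, both on the forward strand.
Cish: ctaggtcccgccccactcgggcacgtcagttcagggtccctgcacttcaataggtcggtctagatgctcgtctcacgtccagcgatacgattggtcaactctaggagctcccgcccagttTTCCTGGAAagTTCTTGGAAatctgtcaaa
Keg1: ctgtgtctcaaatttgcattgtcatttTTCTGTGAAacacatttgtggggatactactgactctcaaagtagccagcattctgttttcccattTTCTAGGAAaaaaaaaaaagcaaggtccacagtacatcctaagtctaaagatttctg

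Both Cish matches lie at its RefSeq start, at bases 1 to 9 and 12 to 20 of the transcript, while the GENCODE model of the gene begins farther upstream (chromosome 9, 107296026 to 107302784). The Keg1 matches lie 173 to 165 and 107 to 99 bases before its start. Of all 32851 windows, 8.30% held the pattern at least once and 0.457% at least 2 times. Among genes that fell and had a window, 27 of 182 (14.8%) held it, against 6 of 133 genes that rose (4.51%) and 881 of 10705 tested genes (8.23%). These shares were not tested, a match is not a binding site, and no window was given for Socs2. Of the 20 genes with the lowest p, described next, 17 had a window and only Keg1 held a match.

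Keg1, a kidney-enriched member of the glycine N-acyltransferase family, fell in PTS2. It stood at 8330 and 5857 CPM in the sham mice and at 855 and 1054 CPM in the UNx mice. The log2 fold change was -2.88 ± 0.24 (SE, edgeR adjusted p = 0.000109), with -3.28 within batch 3 and -2.47 within batch 4. Per nucleus, the median was 82.9 and 60.0 Keg1 UMIs per 10000 UMIs in sham 1 and sham 2, and 6.68 and 9.17 in UNx 1 and UNx 2.

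Most sham nuclei lay above most UNx nuclei, though the tails overlapped. The 10th percentile of sham nuclei was 51.9 and 35.7 Keg1 UMIs per 10000, and the 90th percentile of UNx nuclei was 17.1 and 20.5. Keg1 lies on chromosome 19 at 12695786 to 12719902 (GRCm38, GENCODE M21). In the thick ascending limb, which should hold little of it, Keg1 read 96.9 and 64.9 CPM in batch 3 but 1043 and 285 CPM in sham 2 and UNx 2 (unscaled). The part of free RNA in the level of UNx 2 was not tested.

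**Figure D2:**
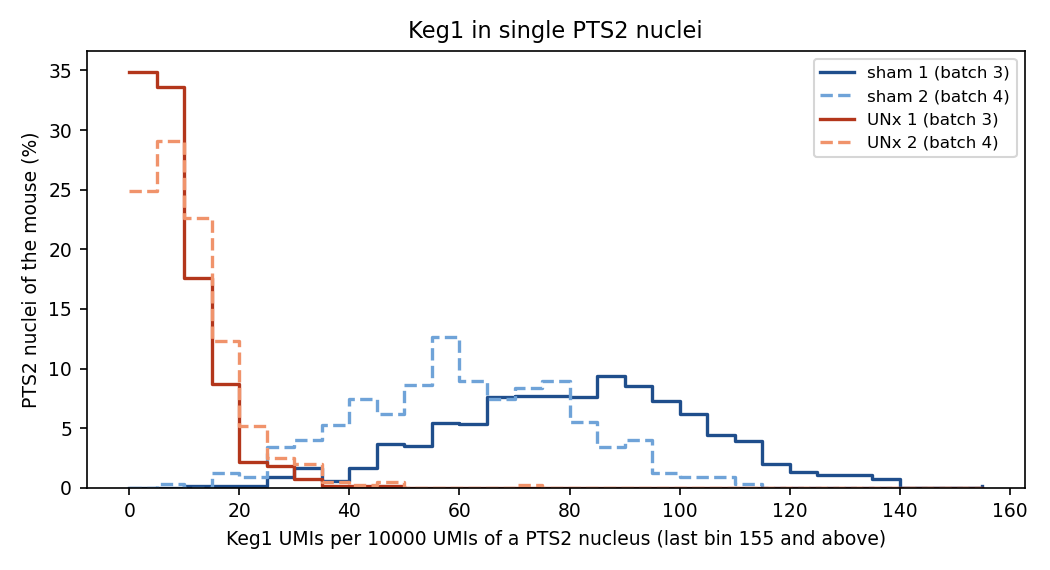
Share of PTS2 nuclei of each mouse (vertical axis, percent) by Keg1 UMIs per 10000 UMIs of the nucleus (horizontal axis, bins of 5, no smoothing). Both UNx mice lie at the low end with medians of 6.68 and 9.17, and both sham mice lie higher with medians of 82.9 and 60.0.

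Genes whose mean log2 CPM was 4 or more and whose groups did not overlap were ranked by p of the fit without the block. The 10 lower genes with the lowest p were Irs2, Hsd3b4, Ndrg1, Keg1, Zfp810, Cbfb, Slc7a7, Ehhadh, Clec2d and Halr1. All 10 fell in the blocked test, which used the same profiles. The order differs there, and Gldc and Nmrk1, described below, had a lower p than Keg1. Irs2, the docking protein that passes insulin receptor signals on, stood at 103 and 106 CPM in the sham mice and 16.6 and 13.1 CPM in the UNx mice (log2 fold change -2.80 ± 0.18 SE, edgeR adjusted p = 1.89e-05). It was the 1 gene of 27 in the insulin, IGF and mTOR list that passed (3.04% over all genes). Slc7a7, the basolateral exporter of cationic amino acids, stood at 424 and 329 CPM in the sham mice and 41.1 and 65.5 CPM in the UNx mice (-2.85 ± 0.23, edgeR adjusted p = 9.72e-05). Ehhadh, a peroxisomal enzyme of fatty acid oxidation, stood at 398 and 304 CPM against 51.0 and 73.7 CPM (-2.51 ± 0.21, edgeR adjusted p = 0.000119).

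Hsd3b4, a member of the 3-beta-hydroxysteroid dehydrogenase family, stood at 110 and 149 CPM in the sham mice and 17.3 and 17.4 CPM in the UNx mice. Its near copy Hsd3b2 stood at 590 and 501 against 240 and 151 CPM, and counts of such copies are uncertain because reads can be shared between them. Ndrg1, a gene induced by hypoxia and other stress, stood at 586 and 626 against 173 and 200 CPM. It fell, while Egln3, an oxygen-sensing hydroxylase of the same hypoxia list, rose from 3.47 and 8.10 to 15.0 and 14.8 CPM. The remaining 14 tested genes of that list did not pass, where 3.04% of all genes passed.

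Cbfb, the partner subunit of the Runx transcription factors, stood at 183 and 151 CPM in the sham mice and 50.2 and 43.9 CPM in the UNx mice. The zinc finger gene Zfp810 stood at 276 and 232 against 73.6 and 79.4 CPM, the lectin gene Clec2d at 92.7 and 84.9 against 30.4 and 26.8 CPM, and the long noncoding RNA Halr1 at 36.3 and 22.6 against 3.55 and 2.77 CPM. The log2 ratios of these 10 genes within a batch lay between -3.36 (Slc7a7, batch 3) and -1.55 (Zfp810, batch 4).

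By the same ranking, the 10 higher genes with the lowest p were Sox2ot, Slc25a25, Cd36, G0s2, Il34, Pi4ka, Entpd4b, Papss1, Ica1 and Gk5. All 10 rose in the blocked test. Slc25a25, a calcium-regulated carrier of ATP-Mg and phosphate in the inner mitochondrial membrane, stood at 28.8 and 36.2 CPM in the sham mice and 105 and 101 CPM in the UNx mice (log2 fold change 1.67 ± 0.16 SE, edgeR adjusted p = 0.000296). A pair of genes of lipid handling rose as well. Cd36, a receptor for fatty acid uptake, stood at 170 and 133 against 489 and 444 CPM (1.63 ± 0.15, edgeR adjusted p = 0.000203), and G0s2, an inhibitor of triglyceride lipase, at 26.4 and 28.4 against 105 and 76.3 CPM (1.72 ± 0.18, edgeR adjusted p = 0.000438).

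Il34, a ligand of the macrophage colony-stimulating factor receptor, stood at 57.8 and 77.6 CPM in the sham mice and 178 and 192 CPM in the UNx mice. Papss1, which makes the sulfate donor used by sulfotransferases, stood at 53.9 and 48.0 against 125 and 105 CPM. Pi4ka, a phosphatidylinositol 4-kinase, stood at 198 and 213 against 409 and 412 CPM. That the groups do not overlap was required by the choice of these genes.

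Sox2ot, a noncoding RNA that overlaps Sox2, stood at 9.14 and 10.0 CPM in the sham mice and 47.6 and 46.9 CPM in the UNx mice (2.31 ± 0.20, edgeR adjusted p = 0.000128). The other 3 were Entpd4b, which has a near copy (Entpd4), Ica1 and Gk5, with log2 fold changes of 0.97, 1.34 and 0.93.

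**Figure D3:**
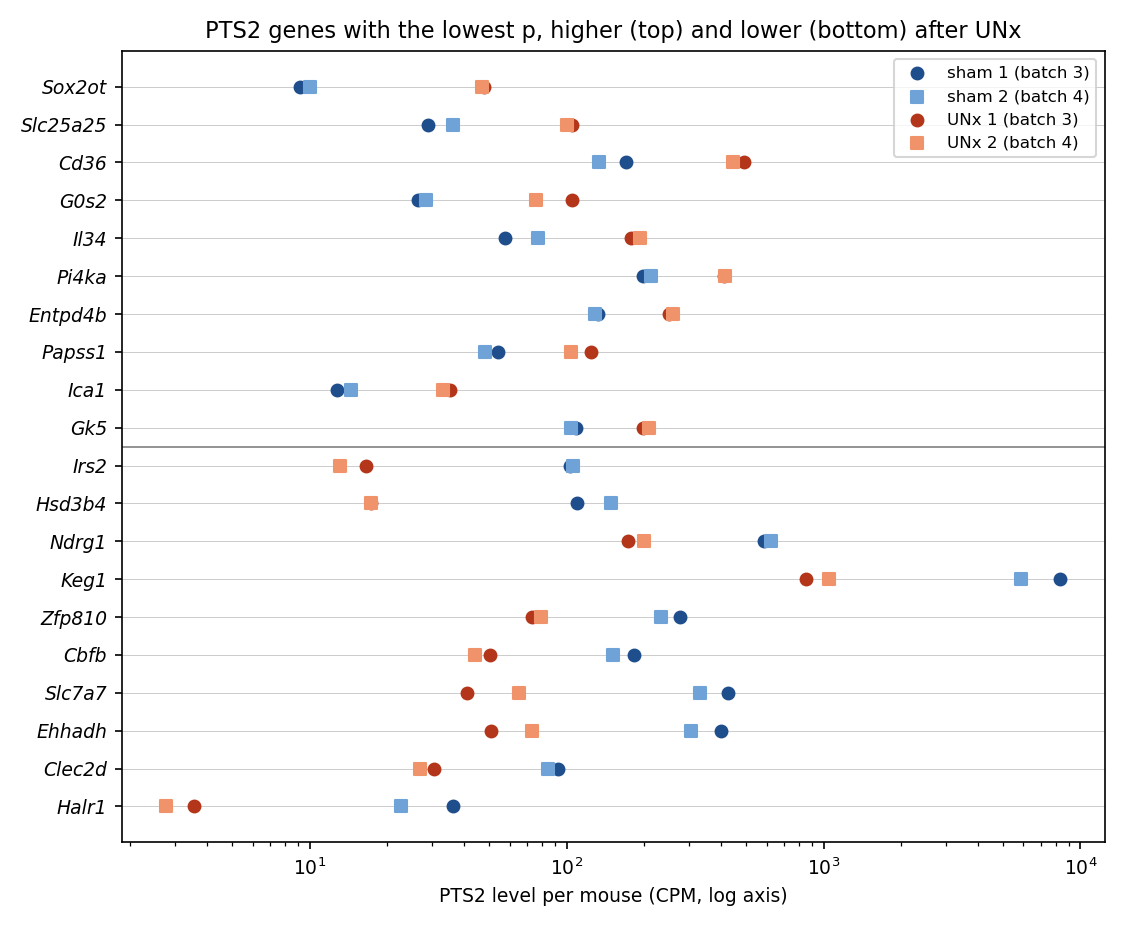
Level in PTS2 (CPM with TMM scaling, log axis) of the 10 higher and 10 lower genes with the lowest p in the fit without the block. Each row has 1 point per mouse (circles batch 3, squares batch 4). In each row the 2 sham points (blue) and the 2 UNx points (red) do not overlap, which the rule for choosing the genes required.

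Organic anion transport, the known work of S2, had 4 called genes of 22: Slc22a6, Slco1a1, Abcc2 and Slc22a7 rose and 0 fell, where 1.22% of all genes rose and 1.81% fell. The list's median log2 fold change was 0.29 beside -0.03 over all genes. Without the block this median was 0.31 in PTS2, 0.40 in PTS1 and 0.23 in PTS3, so the shift was not particular to PTS2. Slc22a6 stood at 180 and 273 CPM in the sham mice and 476 and 569 CPM in the UNx mice (1.23 ± 0.16, edgeR adjusted p = 0.00206). Slco1a1, an organic anion transporting polypeptide, stood at 255 and 571 CPM in sham 1 and UNx 1, and at 62.3 and 198 CPM in sham 2 and UNx 2 (1.40 ± 0.17, edgeR adjusted p = 0.0013). Its groups overlapped because the batches differed, and within each batch the UNx mouse was higher. The same held for the apical efflux pump gene Abcc2, at 1294 and 2298 CPM in batch 3 and 689 and 1051 CPM in batch 4 (0.72 ± 0.17, edgeR adjusted p = 0.0424).

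Slc22a7, which is on the S3 marker list, stood at 9.39 and 12.8 CPM in batch 3 and at 33.9 and 87.5 CPM in batch 4, so its rise came mainly from batch 4, where S3 markers in PTS1 also stood higher (759 and 1182 CPM against 151 and 271 CPM in batch 3). In thick ascending limb nuclei Slc22a7 read 7.90 and 34.3 CPM in the sham mice and 17.1 and 92.3 CPM in the UNx mice (unscaled). The part of free RNA in its rise in PTS2 was not tested. Slc22a8 did not pass (0.42 ± 0.15, edgeR adjusted p = 0.197). In the thick ascending limb Slc22a6 read 20.5 and 40.3 CPM in batch 3 and 154 and 266 CPM in batch 4, so it was higher in the UNx mouse there too, at a lower level.

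Of 12 carriers of dicarboxylates, sulfate and monocarboxylates, Slc13a3 rose, Slc13a1 fell and 10 did not pass. Of all genes, 1.22% rose and 1.81% fell. Slc13a3, whose substrate drives the organic anion exchange, stood at 421 and 574 CPM in the sham mice and 864 and 1021 CPM in the UNx mice (0.93 ± 0.16, edgeR adjusted p = 0.00953). Slc13a1, the apical sulfate transporter, stood at 2584 and 1376 against 1323 and 820 CPM (-0.86 ± 0.17, edgeR adjusted p = 0.0198). The groups did not overlap, though sham 2 lay close to UNx 1.

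Among 24 glucose, amino acid and phosphate carriers, 1 rose and 2 fell, where 1.22% of all genes rose and 1.81% fell. The riser was Slc38a3, a glutamine importer of the basolateral side, at 3.35 and 8.95 CPM in the sham mice and 17.1 and 15.9 CPM in the UNx mice (1.57 ± 0.35, edgeR adjusted p = 0.0376). The other faller beside Slc7a7 was Slc7a12, at 17.6 and 37.5 against 2.15 and 7.02 CPM. Of 18 genes of sodium, bicarbonate and water transport, the carbonic anhydrase genes Car14 (53.0 and 53.9 against 24.2 and 26.8 CPM) and Car4 (114 and 87.2 against 70.8 and 46.7 CPM) fell, and Car12 (67.3 and 153 against 161 and 227 CPM) rose.

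The endocytosis list had 1 called gene of 17 (3.04% over all genes). Dab2, the adaptor that links the receptor megalin to clathrin, stood at 3831 and 3978 CPM in the sham mice and at 2581 and 1453 CPM in the UNx mice (-1.01 ± 0.23, edgeR adjusted p = 0.0362). Lrp2, which encodes megalin, stood at 2853 and 3494 against 1605 and 2467 CPM and did not pass (edgeR adjusted p = 0.0831).

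Genes of glucose and ammonia production gave 4 higher and 2 lower of 18 (1.22% and 1.81% over all genes), with a median log2 fold change of 0.31 beside -0.03 over all genes. G6pc, the last enzyme of glucose release, stood at 164 and 103 CPM in the sham mice and 295 and 279 CPM in the UNx mice (1.14 ± 0.17, edgeR adjusted p = 0.00485). Pck1, which starts glucose synthesis from oxaloacetate, stood at 299 and 531 against 564 and 750 CPM (0.71 ± 0.16, edgeR adjusted p = 0.0431).

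Slc38a3 also rose, and the groups did not overlap in G6pc, Pck1 or Slc38a3. The 2 fallers were Gpt2, a mitochondrial alanine aminotransferase, at 43.1 and 84.9 against 23.5 and 17.0 CPM, and Glul, the glutamine synthetase, at 92.7 and 135 against 50.1 and 97.7 CPM. The groups overlapped in Glul. The calls depended on the fit: Pck1, Glul and Slc38a3 were called in 3, 2 and 2 of the 6 blocked fits, while G6pc was called in 5.

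Of 16 glycine and creatine genes tested, 3 fell and 0 rose, where 1.81% of all genes fell. The list's log2 fold changes were positive in 8 and negative in 8, with a median of 0.055. Gldc, the decarboxylase of the glycine cleavage system, stood at 181 and 273 CPM in the sham mice and 21.3 and 40.3 CPM in the UNx mice (-2.92 ± 0.16, edgeR adjusted p = 8.63e-06). Gatm, the first enzyme of creatine synthesis, stood at 174 and 261 against 63.5 and 142 CPM (-1.17 ± 0.17, edgeR adjusted p = 0.00387). Keg1 was the other one.

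Of the NAD and retinoid list, 3 of 16 genes fell and 0 rose, where 1.81% of all genes fell. Here too 8 values were positive and 8 negative, with a median log2 fold change of 0.030. Nmrk1, the kinase that turns nicotinamide riboside into the NAD precursor, stood at 730 and 529 CPM in the sham mice and 183 and 118 CPM in the UNx mice (-2.08 ± 0.16, edgeR adjusted p = 6.85e-05). The kynureninase gene Kynu stood at 95.4 and 148 against 59.8 and 34.0 CPM, and the retinal reductase gene Dhrs3 at 65.5 and 72.3 against 46.5 and 30.3 CPM. Only Nmrk1 of these was called in all 6 blocked fits.

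Of 31 fatty acid oxidation genes tested, Cd36 rose, Ehhadh fell and 29 did not pass (1.22% rose and 1.81% fell over all genes). Their log2 fold changes were positive in 16 and negative in 15, with a median of -0.0034. In the peroxisome list 2 of 26 fell (1.81% over all genes), Ehhadh and Hao2, a hydroxyacid oxidase at 60.6 and 67.6 against 26.1 and 24.4 CPM. Fatty acid synthesis had 0 called genes of 16. Cholesterol synthesis had 1 called gene of 25 (3.04% over all genes), Acat2, at 63.3 and 57.6 against 30.8 and 39.9 CPM. In the whole kidney 20 of those 25 genes were higher and 0 lower after UNx, where 14.2% of all genes were higher and 13.1% lower. The list's median log2 fold change was 0.50 there and 0.11 in PTS2.

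Of 30 genes of xenobiotic and steroid metabolism, 2 rose and 3 fell (1.22% and 1.81% over all genes). Cyp24a1, which inactivates vitamin D hormone, rose from 42.0 and 42.4 CPM in the sham mice to 187 and 96.6 CPM in the UNx mice (1.70 ± 0.21, edgeR adjusted p = 0.00165). Cyp2a4 rose from 14.4 and 23.9 to 34.4 and 68.7 CPM. Ugt2b38 fell within each batch (426 to 171 CPM and 734 to 310 CPM), Fmo2 fell from 286 and 203 to 180 and 111 CPM, and Cyp2d26 fell from 10.8 to 4.86 CPM in batch 3 and from 44.1 to 23.3 CPM in batch 4. Cyp2a4, Ugt2b38 and Cyp2d26 belong to families of similar genes, so their counts are uncertain. In thick ascending limb nuclei Cyp2a4 read 13.4 and 25.0 CPM in the sham mice and 24.0 and 72.6 CPM in the UNx mice (unscaled). Cyp2d26 read 4.97 and 49.5 against 2.40 and 28.7 CPM there. The part of free RNA in the changes of Cyp2a4 and Cyp2d26 was not tested.

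Of 18 targets of the antioxidant factor NRF2, only Gclc was called, where 3.04% of all genes were called. Gclc, the rate-limiting subunit of glutathione synthesis, fell from 843 and 812 CPM to 224 and 359 CPM (-1.55 ± 0.19, edgeR adjusted p = 0.00165). Nqo1, another target, stood at 43.1 and 26.2 CPM in the sham mice and at 38.9 and 37.3 CPM in the UNx mice, with overlapping groups. In the whole kidney Nqo1 was higher after UNx by 0.93 ± 0.07 (log2, SE, edgeR adjusted p = 8.48e-06), while Gclc there had a log2 fold change of -0.08 (edgeR adjusted p = 0.755).

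Growth and division genes were followed in 3 lists, beside the 3.04% of all genes that were called in PTS2. E2f3, a transcription factor of the G1 to S transition, was the 1 called gene of 15 among G1 cyclins, Myc and inhibitors, at 32.2 and 25.6 CPM in the sham mice and 54.9 and 52.8 CPM in the UNx mice (0.90 ± 0.17, edgeR adjusted p = 0.017). None of 18 DNA replication genes and none of 7 tested mitosis genes passed, and 15 further mitosis genes were too low to test. The replication gene Tk1 stood at 6.95 and 6.82 against 11.3 and 9.60 CPM (edgeR adjusted p = 0.38). In the whole kidney 16 of 23 replication genes and 12 of 20 mitosis genes were higher and 0 lower. Of all genes there, 14.2% were higher and 13.1% lower. Of 26 ribosome assembly genes, 30 ribosomal protein genes and 27 nuclear-encoded respiratory chain genes, 0 passed in PTS2. Nop58, of ribosome assembly, stood at 39.5 and 32.0 against 24.1 and 23.1 CPM (edgeR adjusted p = 0.12). Mtor, which encodes the kinase at the centre of growth control, stood at 262 and 290 against 404 and 370 CPM (edgeR adjusted p = 0.129).

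The transcription factor list gave 1 higher and 1 lower of 22 (1.22% and 1.81% over all genes). Nr1h4, the bile acid receptor FXR, fell from 968 and 883 CPM to 519 and 364 CPM (-1.09 ± 0.17, edgeR adjusted p = 0.00517), and Pax2, a developmental regulator of the nephron, rose from 112 to 153 CPM in batch 3 and from 151 to 316 CPM in batch 4. In the thick ascending limb Pax2 read 325 and 790 CPM in sham mice and 469 and 1033 CPM in UNx mice (unscaled). The part of free RNA in the rise of Pax2 in PTS2 was not tested. Vgll4, an inhibitor of the Hippo pathway's TEAD factors, fell from 125 and 143 to 40.1 and 81.4 CPM, and the growth factor gene Nrg1 fell from 869 and 408 to 278 and 213 CPM. They were the called genes of 16 and 11 in the Hippo and EGF lists, where 3.04% of all genes were called. Xbp1 (77.3 and 40.7 against 27.3 and 26.2 CPM) fell in the unfolded protein list, Gabarapl1 (51.5 and 62.5 against 26.0 and 42.1 CPM) in the autophagy list, and the clock gene Per2 rose from 34.1 to 57.3 CPM in batch 3 and from 63.7 to 119 CPM in batch 4.

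The injury and repair list had 1 called gene of 17 (3.04% over all genes). Plau, the urokinase gene, fell from 156 and 73.8 CPM in the sham mice to 34.5 and 33.8 CPM in the UNx mice (-1.68 ± 0.22, edgeR adjusted p = 0.00236) and was that gene. Itgb6, an integrin subunit of the same list, stood at 765 and 630 against 454 and 460 CPM and did not pass (edgeR adjusted p = 0.0728). The 8 markers of injured proximal tubule summed to 59.6 and 211 CPM in the sham mice and 33.8 and 158 CPM in the UNx mice (unscaled), so within each batch the UNx mouse was lower. Spp1 alone made 56.1, 190, 30.6 and 141 CPM of these in sham 1, sham 2, UNx 1 and UNx 2, the kidney injury marker Havcr1 stood at 1.44 CPM or less in every mouse, and Ccl2 was at 0 in all of them. In the thick ascending limb Spp1 read 256 and 286 CPM in sham mice and 177 and 207 CPM in UNx mice (unscaled). The part of free RNA in the sum was not tested. Glucocorticoid and immediate early genes had 0 called of 13 and 10.

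Mitochondrially encoded genes rose in 3 of 13 (1.22% over all genes): mt-Nd3, mt-Nd5 and mt-Nd4l. The gene mt-Nd3, a subunit of complex I, stood at 26.6 and 53.2 CPM in sham 1 and UNx 1 and at 285 and 556 CPM in sham 2 and UNx 2. These genes differed between batches far more than between groups, and the part of carried-over cytoplasmic RNA in the rise was not tested. Among mitochondrial carriers, Slc25a25 rose, Slc25a36, a pyrimidine nucleotide carrier, fell from 301 and 224 to 191 and 92.0 CPM, and 19 did not pass. Aldh1a7 stood at 2.19 and 5.12 against 4.86 and 16.2 CPM and did not pass (edgeR adjusted p = 0.0521), though it was higher in the whole kidney by 1.36 ± 0.21.

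The operation's effect in PTS2 was set against that in PTS1 and PTS3 of the same mice, in edgeR fits of the interaction with the mouse as a block. No difference passed: 0 of 15451 genes against PTS1 (473 with an unadjusted p under 0.05, and 2 by DESeq2) and 0 of 15481 against PTS3 (383, and 1 by DESeq2). With the replicate number added within each segment, edgeR called 34 genes against PTS1 and 222 against PTS3. Both of these fits have the same design and leave few residual degrees of freedom, so their errors lean on the spread shared over genes. The fit against PTS3 had no spread of its own for single genes, so its p-values are left out here. For these tests the segments share their libraries.

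Sox2ot and Irs2 had the lowest p against PTS1. Sox2ot stood at 25.2 and 22.9 CPM in PTS1 of the sham mice and 36.7 and 34.4 CPM in PTS1 of the UNx mice, a smaller difference than in PTS2 by 1.76 ± 0.19 on the log2 scale (SE, edgeR adjusted p = 0.635, and 0.00805 with the replicate number). Irs2 stood at 48.1 and 44.5 CPM against 21.2 and 16.3 CPM in PTS1, and its log2 difference was more negative in PTS2 by 1.50 ± 0.16 (edgeR adjusted p = 0.635, and 0.00805 with the replicate number). In PTS3 Irs2 stood at 212 and 159 CPM against 17.6 and 20.4 CPM, an effect that differed from that in PTS2 by 0.45 ± 0.26 (edgeR adjusted p = 1.0). The next genes by p were Maml2 and Plpp1, with more positive effects in PTS2, and Ugt8a and Mylip, with more negative ones.

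Against PTS3, the chemokine gene Ccl28 had an effect more positive in PTS2 by 1.99 ± 0.23 (edgeR adjusted p = 1.0), with 13.5 and 6.49 CPM in PTS2 of the sham mice, 52.9 and 30.0 CPM in PTS2 of the UNx mice, and 33.3, 21.5, 40.0 and 19.2 CPM in PTS3 of sham 1, sham 2, UNx 1 and UNx 2. Ehhadh and Fmo2 were less lowered in PTS2 than in PTS3 by 0.90 and 1.15, and Wnt5b, Clec2d and Hbegf had more negative effects in PTS2. Without the replicate number none of these 6 passed in edgeR, and Ccl28 alone passed in DESeq2 (DESeq2 adjusted p = 0.0477).

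Keg1 and Cish were also lower in the other segments of the UNx mice. Keg1 stood at 6580 and 4284 CPM in PTS1 of the sham mice and 966 and 905 CPM in PTS1 of the UNx mice, and at 8611 and 4942 against 1071 and 1035 CPM in PTS3. The effect in PTS2 differed from these by -0.36 ± 0.16 and -0.28 ± 0.20 (SE), both with edgeR adjusted p = 1.0. Cish stood at 48.6 and 42.1 against 1.23 and 5.37 CPM in PTS1 and at 76.8 and 64.2 against 0.911 and 3.37 CPM in PTS3. Slc22a6 was likewise higher in PTS1 of both UNx mice within their batches, at 60.1 and 186 CPM in batch 3 and 196 and 333 CPM in batch 4.

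In the whole kidney, 14.2% of 14104 genes were higher and 13.1% lower after UNx by edgeR. Beside these shares, several PTS2 genes had whole-kidney values of the same sign. Slc25a25 was higher by 1.25 ± 0.18 (SE, edgeR adjusted p = 0.000369), Slc38a3 by 0.87 ± 0.09, Pck1 by 0.75 ± 0.13, Papss1 by 0.30 ± 0.07 and Slc22a6 by 0.29 ± 0.09 (edgeR adjusted p = 0.0264). Hao2, Plau, Hsd3b4, Dab2, Ndrg1, Nr1h4 and Slc7a7 were lower, with log2 fold changes of -0.52, -0.48, -0.44, -0.39, -0.38, -0.29 and -0.24 and adjusted p-values under the threshold.

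Genes with a whole-kidney call opposite to that in PTS2 were found in both directions. Keg1 there ran from 974 over a median of 1124 to 1319 CPM in sham kidneys and from 1110 over 1439 to 1772 CPM in UNx kidneys, a log2 fold change of 0.36 ± 0.11 (SE, edgeR adjusted p = 0.0231). Gldc was higher by 0.38 ± 0.12 (edgeR adjusted p = 0.0222), Xbp1 by 0.37 ± 0.11, Clec2d by 0.35 ± 0.11 and Acat2 by 0.32 ± 0.06. Cyp2a4, Slc22a7, mt-Nd5 and Pax2, which rose in PTS2, were lower in the whole kidney, with log2 fold changes of -0.41, -0.43, -0.38 and -0.50 (edgeR adjusted p = 0.00772, 0.0231, 0.0152 and 0.0234). Cyp2a4, Slc22a7 and Pax2, as given above, were also higher in thick ascending limb nuclei of the UNx mouse of each batch. The same held for mt-Nd5 there, at 120 and 1323 CPM in the sham mice and 196 and 2971 CPM in the UNx mice (unscaled). Irs2 had a whole-kidney value of 0.50 ± 0.19 and did not pass (edgeR adjusted p = 0.0667). Zfp810, Cbfb, Halr1, Socs2, Ehhadh, Nmrk1 and Gatm had whole-kidney values between -0.18 and 0.20, none of which passed. With the share of mitochondrially encoded counts as a covariate, 15 of the whole-kidney calls of genes named here were lost with their sign kept: those of Keg1, Cish, Xbp1, Clec2d, Papss1, Plau, Hsd3b4, Dab2, Ndrg1, Nr1h4, Slc7a7, Fmo2, Cyp2a4, Pax2 and mt-Nd5. In that fit Keg1 stood at 0.32 (edgeR adjusted p = 0.281), while Gldc stood at 0.62 and passed (edgeR adjusted p = 0.0294). The share ran from 23.5% to 26.7% in sham kidneys and from 21.5% to 24.9% in UNx kidneys. The covariate is thus tied to the operation, and a lost call cannot be told apart from that tie. The gene mt-Nd5 is itself counted in the share. Nuclei and whole kidney were not compared by a test, since they share no mouse, batch or kind of RNA.

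**Figure D4:**
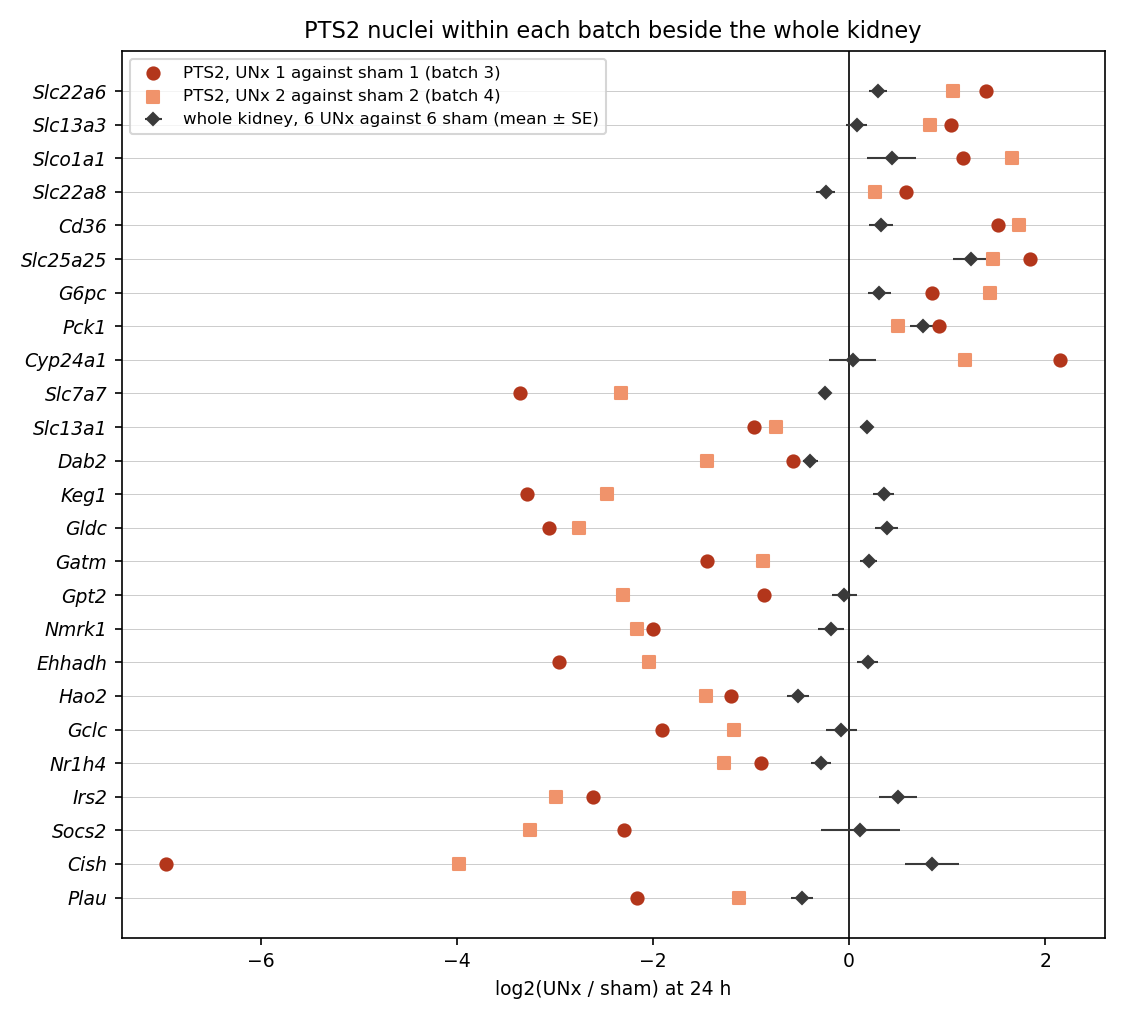
Log2 ratio of UNx to sham at 24 h (horizontal axis) in PTS2 within batch 3 (circles) and batch 4 (squares), beside the whole-kidney log2 fold change of other mice (diamonds, bars are SE, 6 against 6). Both batches fall on the same side of 0 for each gene shown, and Keg1, Gldc and Cish lie left of 0 in PTS2 and right of 0 in the whole kidney.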

How the data were processed

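The authors deposited a table of estimated UMI counts per gene and nucleus, not normalized, which per the submitters' processing notes came from alevin and Seurat with the build mm10, and 13.9% of its values above 0 are not whole. The deposited whole-kidney table holds estimated counts made with Salmon 1.5.0 (GRCm39), per the submitters' processing notes. No nucleus has fewer than 1755 UMIs. How nuclei were filtered, whether doublets were removed and whether strand was used is not given in the sources used here. Doublets were not called. Cell classes are the authors' annotation.

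PTS2 counts were summed per mouse and rounded, so the mouse is the replicate, and no source says more about how mice were paired than the labelled batch. Genes were tested with edgeR 4.0.16 in R 4.3.3 (quasi-likelihood, filterByExpr, TMM, two-sided, Benjamini-Hochberg adjusted over all genes tested, threshold 0.05), first without and then with the replicate number as a block. Replicate numbers pair the nucleus samples because the labels tie them to batches 3 and 4, and the deviations of the number 1 mice of both groups from their group means correlated with r = 0.838 over 7511 genes. Whole-kidney libraries, 6 per group, held 14868494 to 24108587 counts. The SE of a log2 fold change is its value over the square root of F. Alternatives used DESeq2 1.42.0 and limma 3.58.1. The procedure was tested on simulated data. Coordinates are GENCODE M21 (GRCm38).

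Members, the 34 gene lists and the genes named were chosen with earlier results of these data known. Named by rule were 10 genes of lowest p per direction in the fit without the block. For these, the mean log2 CPM was 4 or more, groups did not overlap and predicted genes were passed over. The rule also named the called or lowest-p members of lists and 3 genes of lowest p per direction for each segment difference. It added the segment markers and 10 genes known from earlier results. A gene chosen by this rule is not reported here.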

Additional observations from a re-analysis of the deposited data

Results flagged for a closer look

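In 7 of 136 groups of 6 whole-kidney libraries checked, 1 library lay far from the other 5, and chance alone marks about 1 group in 20. Halr1 was at 2.31 CPM in UNx 4, where the others lay between 1.09 and 1.48 CPM. In UNx 6, Kynu was at 11.7 CPM against 4.65 to 7.20 CPM, and Slc22a8 at 575 CPM against 405 to 433 CPM. In sham 1, Gabarapl1 was at 659 CPM against 727 to 767 CPM, and Irs2 at 35.1 CPM against 13.8 to 20.6 CPM. In sham 6, Car14 was at 96.4 CPM against 67.4 to 76.6 CPM, and Per2 at 38.3 CPM against 17.4 to 24.7 CPM. These are libraries of the whole kidney, and the PTS2 groups of 2 mice are too small for this check.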

How the results depend on the processing

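The comparison in PTS2 called 0 genes without a block and 434 with the replicate block, which the labelled batch pairs, and 36 in the DESeq2 Wald test without a block. With all 3 proximal tubule segments in 1 fit it called 1. Fits added after the data were seen, all with the replicate block, called 66 with the 3 segments in 1 fit, 521 in limma voom, 217 in DESeq2, 172 without mitochondrially encoded genes and 312 without nuclei of over 2 times the median UMI total. Without the block, DESeq2 size factors, no filter, limma voom, no mitochondrially encoded genes, no nuclei of high UMI total and leaving out any 1 mouse each called 0, a range of 0 to 0. The difference from PTS1 gave 34 calls with the replicate block within segment, 2 without a filter and 2 in DESeq2, and that from PTS3 gave 222 and, in DESeq2, 1. Leaving out any 1 mouse gave 0 for both. The whole-kidney count of 3852 became 677 with the share of mitochondrially encoded counts (21.5% to 26.7%) as a covariate and 3186 with the replicate block. That share was mostly lower in the UNx kidneys, so the covariate is tied to the operation.

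Signs turned for few named genes. Over fits without 1 mouse each, the log2 value ran from -0.16 to 0.54 for Nqo1, -2.45 to 0.37 for Cyp2d26, -0.71 to 2.41 for Slc22a7, -1.52 to 3.51 for mt-Nd3, -2.51 to 4.32 for mt-Nd5 and -2.62 to 3.94 for mt-Nd4l. Without sham 2, Nqo1 and Cyp2d26 turned, without UNx 2 Slc22a7 and the mitochondrial genes, and without sham 1 mt-Nd4l (-0.070). Within batch 3, Nqo1 was at -0.15. With the mitochondrial covariate, whole-kidney values became 0.21 for Kynu, 0.29 for Gpt2, 0.14 for Car12, 0.030 for Car14, -0.014 for Per2, 0.12 for Ica1 and -0.29 for Sox2ot, and 15 other named genes lost their whole-kidney call. The cause was not tested. PTS2 shares of proximal tubule nuclei were 31.1%, 30.2%, 35.5% and 31.4%. With 2 mice per group and 4627701 to 10762599 UMIs per sum, genes of a few CPM could not be judged.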
